A study of Homo sapiens with 6 samples.

Results

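The protein genes of the mitochondrial ribosome were followed in K562 cells, an established human leukaemia line with erythroid and megakaryocytic features. The set holds each protein-coding row of the deposited RPKM table whose symbol starts with MRPL or MRPS and a digit and has no hyphen, which gave 78 genes among 60131 rows, 19902 of them protein-coding. The same genes were found by Entrez identifier in the deposited table of normalized read counts, 77 by symbol and 1, MRPS36, by an older symbol. RNA was sequenced from 6 libraries. In 3 of them RUNX1, a transcription factor of blood cell development, was wild type (WT), and in the other 3 it carried R320*, a premature stop codon in its C-terminal part. The study asked how transcription differs between the genotypes. How the R320* cells were made, whether they are 1 clone, or whether libraries of a genotype are separate cultures is not stated in the sources used here, so the p-values describe the spread of these libraries, which could be technical.

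Mitochondria keep a small genome that encodes core membrane subunits of the respiratory chain and of ATP synthase, and they translate these mRNAs on ribosomes of their own. The RNA of that ribosome is transcribed inside the organelle, whereas its proteins are all encoded in the nucleus, made in the cytosol and imported. Many of them descend from bacterial ribosomal proteins, and others are found only in mitochondria. MRPL genes encode proteins of the large subunit, which joins amino acids, and MRPS genes proteins of the small subunit, which reads the mRNA. The names are historical: MRPS30 and MRPS18A sit in the large subunit, and MRPS36 is now known as a subunit of the α-ketoglutarate dehydrogenase complex (current symbol KGD4). Erythroid cells need this machinery for the respiratory chain and for haem synthesis, whose opening and closing steps take place in mitochondria.

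What the genes share in sequence was read from RefSeq (GRCh38.p14), which had a window from 250 bases before to 50 bases after the start of transcription for 70 of the 78 genes. The sequence AAGATGGC, the core recognised by the factor YY1, was present on either strand in 21 of the 70 genes (30%). It was present in 687 of the 11018 genes with a window that were tested in the normalized counts (6.24%). Of all 27305 genes with a window 962 had it (3.52%). In 16 of the 21 genes it lay on the gene's own strand just downstream of the start, beginning 7 to 36 bases after it. The core holds the letters ATG, and whether these are the start of translation was not examined. The 30-base stretches below are shown because this shared core was the commonest of the motifs searched among these genes, and because it occurs in genes that were higher, lower and not called in R320* cells. The core is in capitals, and the flanks differ between genes.

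MRPL50, chr9:101398577-101398606, strand minus: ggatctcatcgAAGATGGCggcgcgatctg
MRPL45, chr17:38297170-38297199, strand plus: tttgcgggaacAAGATGGCagcccccatac
MRPS27, chr5:72320206-72320235, strand minus: tggtacgctccAAGATGGCtgcctccatag
MRPS7, chr17:75261887-75261916, strand plus: cgtggccagccAAGATGGCtgcccccgcag
MRPL20, chr1:1407260-1407289, strand minus: ccgacccgggcAAGATGGCagcggcgctgc
MRPL22, chr5:154941093-154941122, strand plus: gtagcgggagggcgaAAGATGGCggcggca
MRPL42, chr12:93467511-93467540, strand plus: aggattgaaacAAGATGGCgggttcgtggt
MRPL51, chr12:6493223-6493252, strand minus: gggtaaggcccAAGATGGCtgtcttcgcct
MRPL46, chr15:88467362-88467391, strand minus: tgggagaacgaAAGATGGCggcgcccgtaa
MRPS18A, chr6:43687764-43687793, strand minus: gtaggtttttgAAGATGGCggccctcaagg

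The stretches of MRPL50, MRPL45, MRPS27, MRPS7 and MRPL20 come from genes that were higher in R320* cells, those of MRPL22, MRPL42 and MRPL51 from genes that were lower, and those of MRPL46 and MRPS18A from genes not called. The core was found in 6 of 19 higher genes, 4 of 11 lower genes and 9 of 38 genes not called. The other motifs searched, also on both strands and with overlaps between motifs left in, were closer to their share among tested genes. The ETS core CCGGAAGT was present in 17.1% of the 70 genes against 9.67% of tested genes. The E-box CACGTG was present in 14.3% against 12.4%, and the NRF1 core CGCATGCG in 4.29% against 4.49%. The RUNX core TGTGGT was present in 7 of the 70 genes (10.0%, against 12.9% of tested genes), in 1 of 19 higher genes and in 1 of 11 lower genes. A further element, ACTACANNTCCC, was searched after it had been seen in the sequences, and was present in 10.0% against 4.30%. Matches of letters are descriptions of these windows and not sites of binding.

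The upstream sequences of the genes with the largest rise and with the smallest p among those that fell are shown in full up to the first annotated exon. The capitals mark 2 copies of the ACTACA element in MRPL50, and an E-box, a RUNX core on the opposite strand and an NRF1 core, in that order, in MRPL22.

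MRPL50, chr9:101398619-101398868, strand minus: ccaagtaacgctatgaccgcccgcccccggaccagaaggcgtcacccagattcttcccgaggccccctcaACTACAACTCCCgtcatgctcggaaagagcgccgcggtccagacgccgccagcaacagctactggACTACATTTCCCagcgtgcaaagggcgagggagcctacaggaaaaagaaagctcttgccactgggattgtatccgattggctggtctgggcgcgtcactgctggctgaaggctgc
MRPL22, chr5:154940823-154941069, strand plus: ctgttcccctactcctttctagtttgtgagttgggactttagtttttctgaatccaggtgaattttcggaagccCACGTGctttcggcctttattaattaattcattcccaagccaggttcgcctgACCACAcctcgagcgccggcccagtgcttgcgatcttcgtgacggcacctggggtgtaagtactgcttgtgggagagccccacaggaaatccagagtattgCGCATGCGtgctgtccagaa

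The libraries were close in depth, with 29058471 to 31306435 reads assigned to genes. RUNX1 itself was 2933 ± 31.6 normalized counts in WT and 5165 ± 124 in R320* (SD, n = 3), a gene total that does not separate the alleles. The K562 markers GATA1, TAL1, KLF1, HBG1, TFRC and LMO2 each had a mean of at least 3117 normalized counts in each genotype. Of 10 markers of other cell types 3 stayed below 10 in both genotypes, and none was at 0 in every library. COL1A2 (3388 and 2725 normalized counts in WT and R320*) and CD3D (728 and 467) made up most of their sum, which ran from 4288 to 4405 in WT and from 3251 to 3545 in R320*. Its part in the results below was not tested.

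All 78 genes were expressed in both genotypes. On the per-length RPKM scale, mean levels over the 6 libraries ran from 14.4 for MRPL57 to 257 for MRPS24, a 17.8-fold range, with a median of 72.6 RPKM, and 57 of the 78 genes lay between 50 and 150 RPKM. Most of these proteins enter the ribosome in equal numbers, so their mRNA levels were not matched to their numbers in the particle. The order of the genes by level was much the same in both genotypes, with a rank correlation of 0.949 across genes, which are not independent replicates.

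MRPS24, a small-subunit protein, had the highest level, with 276, 259 and 297 RPKM in WT and 252, 226 and 228 in R320*. MRPS18B, another small-subunit protein, followed with 173, 199.5 and 188 RPKM in WT and 204, 205 and 196 in R320*. MRPL2, a protein of the large subunit's core, was the third with 151, 147 and 156 in WT and 160, 165 and 171 in R320*. Libraries of the genotypes did not overlap for MRPS24 and MRPL2, and MRPS18B overlapped between them. At the low end stood MRPL57, with 14, 12.1 and 14.9 RPKM in WT and 14.2, 15.02 and 16.01 in R320*. MRPL17 had 20.2, 18.8 and 20.4 RPKM in WT and 19.7, 18.9 and 16.2 in R320*. MRPL44, which is related to RNase III enzymes, had 22.6, 20.02 and 21.8 in WT and 20.5, 19.97 and 22.2 in R320*. Both genotypes overlapped for each of these 3 weakly expressed genes.

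MRPS24 and MRPS18B were nearly empty in the other deposited table. MRPS24 had 1.05 normalized counts in 1 WT library and 0 in the other 5, and MRPS18B had 0 in 4 libraries and 1.96 and 2.98 in the other 2, both R320*. Both genes therefore had no test there, and their levels rest on the RPKM table alone. The MRPS24 span overlaps that of a read-through gene, URGCP-MRPS24. In the RPKM table MRPS24 was lower in R320* cells (log2 fold change -0.24, limma adjusted p = 0.0317), a call lost without WT replicate 1 or 3 or R320* replicate 2 or 3 (limma adjusted p = 0.0801, 0.0857, 0.0993 and 0.0946).

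Between the genotypes, mitochondrial ribosomal protein genes moved little and in both directions. The remaining 76 genes all reached the filter of 10 normalized counts in 3 or more libraries, and 24 of them were higher and 13 lower in R320* cells, while 39 were not called (limma on log2(normalized count + 1), Benjamini-Hochberg adjusted p below 0.05 over 14299 genes). The called share was 48.7%, against 53.7% of all genes tested, of which 26.4% were higher and 27.4% lower. The called share was thus near that of genes in general. Scaling the libraries by their upper quartile gave 29 higher and 9 lower, beside 4194 higher and 3619 lower of all 14299 genes. In bulk RNA a change per cell cannot be told apart from a change in which cells, or how much of their RNA, were sampled.

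The size of the changes was small. The median log2 fold change (R320* minus WT) was 0.04, against 0.01 over all genes tested, and the median absolute log2 fold change was 0.15, against 0.27. Of the 76 genes 9 differed by over 1.25-fold (11.8%, against 43.8% of all genes tested) and 1, MRPL50, by over 1.5-fold (1.32%, against 24.2%). Of the 37 called genes 28 differed by less than 1.25-fold. For 72 of the 76 genes the 95% interval of the fold change lay inside 1.5-fold in either direction (94.7%, against 55.7% of all genes tested), and for 53 it lay inside 1.25-fold (69.7%, against 29.3%). These genes were well counted, with mean normalized counts from 468 to 5737, and the median coefficient of variation between libraries was 4.06% in WT and 4.29% in R320*. Libraries of the genotypes did not overlap for 44 of the 76 genes (57.9%), a share near the 59.8% of all genes tested.

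**Figure D1:**
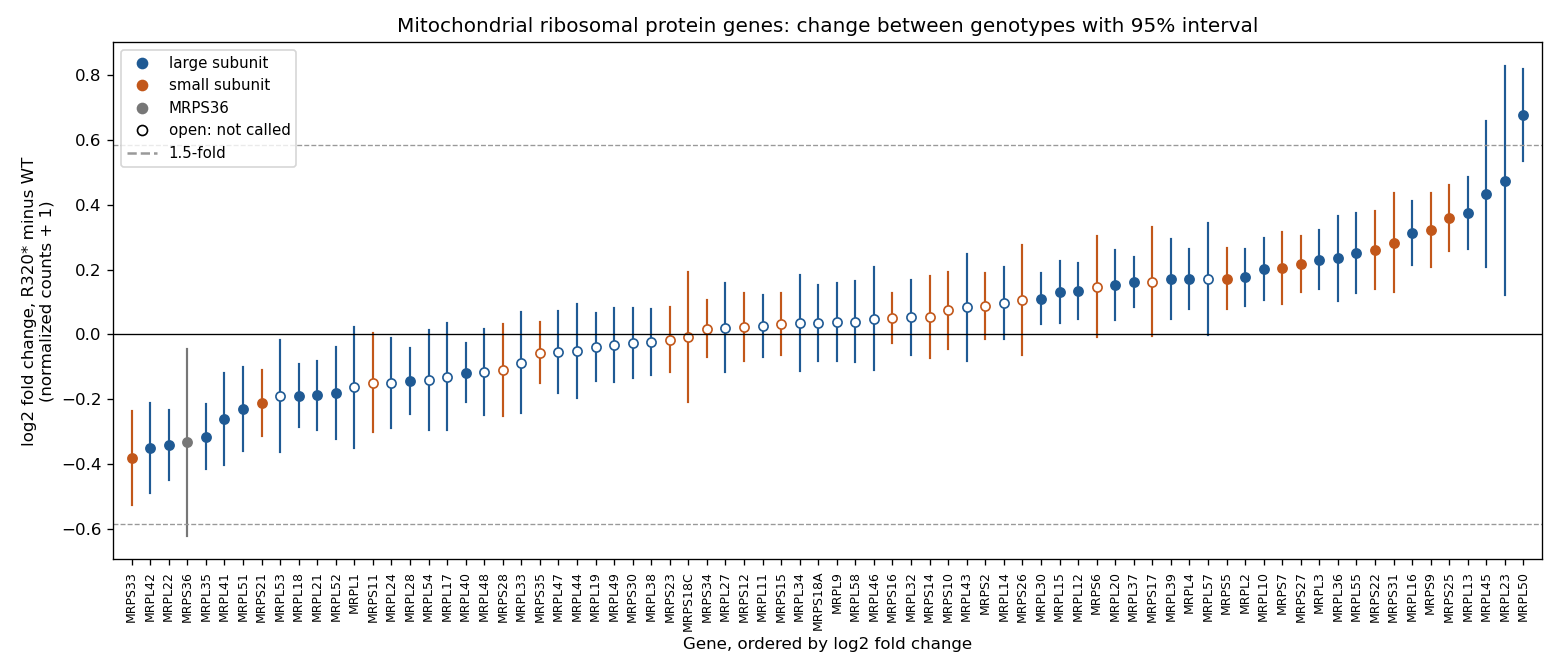
Log2 fold change (R320* minus WT, on log2(normalized count + 1)) of the 76 tested genes in order of size, with 95% intervals from limma. Filled points are called at an adjusted p below 0.05 and open points are not, dashed lines stand at 1.5-fold, and MRPL50 alone lies beyond them.

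Large-subunit genes held the largest rise. MRPL50 (Entrez gene 54534, chromosome 9, 101387633 to 101398618), a mitochondrion-specific protein whose start carries the YY1 core shown above, had 918, 994 and 919 normalized counts in WT and 1470, 1647 and 1423 in R320*. Each R320* library was far above each WT library. The difference was 1.6-fold (log2 fold change 0.68, 95% interval 0.54 to 0.82, limma adjusted p = 2.76e-07). In RPKM it had 17.7, 18.8 and 18.1 in WT and 24.5, 29.8 and 28.7 in R320* (change of 0.59 on the log2 scale, limma adjusted p = 0.0022), so that it rose from among the lowest levels of the set.

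MRPL13 (Entrez gene 28998, chromosome 8, 120395437 to 120445150), the counterpart of bacterial L13, had 1662, 1683 and 1661 normalized counts in WT and 2267, 2201 and 2032 in R320*. It was higher by 29.7% (limma log2 fold change 0.37 ± 0.05 SE, adjusted p = 1.48e-05), and the WT libraries lay within a narrow range. MRPL16 (Entrez gene 54948, chromosome 11, 59806140 to 59810778), counterpart of the L16 protein near the peptidyl transferase centre, had 2193, 2231 and 2327 in WT and 2754, 2748 and 2889 in R320*, higher by 24.3% (limma log2 fold change 0.31 ± 0.05 SE, adjusted p = 2.55e-05). MRPL3 (Entrez gene 11222, chromosome 3, 131462212 to 131502971), counterpart of the early-assembling L3, had 3540, 3270 and 3486 in WT and 4082, 4047 and 3941 in R320* (limma log2 fold change 0.23 ± 0.04 SE, adjusted p = 0.000265). Its span holds the small nucleolar RNA gene SNORA58. The genotypes did not overlap for any of these 3 genes, and all 3 were called higher in the RPKM table too.

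MRPL10 (Entrez gene 124995, chromosome 17, 47823272 to 47831541), which anchors the stalk that recruits translation factors, had 2497, 2346 and 2454 normalized counts in WT and 2813, 2753 and 2822 in R320*. It rose by 14.97% (limma log2 fold change 0.20 ± 0.05 SE, adjusted p = 0.0012). In RPKM it was called higher as well (limma adjusted p = 0.0196), a call lost without WT replicate 2 (limma adjusted p = 0.0654) or R320* replicate 3 (limma adjusted p = 0.053). MRPL37 (Entrez gene 51253, chromosome 1, 54200167 to 54225489), a mitochondrion-specific protein, had 5415, 5377 and 5461 in WT and 5990, 5987 and 6194 in R320* (limma log2 fold change 0.16 ± 0.04 SE, adjusted p = 0.00131). It had the highest count of the set and a rise of 11.8%, it overlaps SSBP3, and it was not called in RPKM (limma adjusted p = 0.0502).

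Among small-subunit genes the largest rise was that of MRPS25 (Entrez gene 64432, chromosome 3, 15042251 to 15065315), a mitochondrion-specific protein. It had 3917, 4104 and 3933 normalized counts in WT and 4797, 5071 and 5480 in R320*, a difference of 28.2% (limma log2 fold change 0.36 ± 0.05 SE, adjusted p = 7.87e-06). Its span overlaps NR2C2. Its call in RPKM (log2 fold change 0.34, limma adjusted p = 0.0205) was lost without WT replicate 1 or 2 or R320* replicate 2 or 3 (limma adjusted p = 0.0669, 0.0617, 0.0682 and 0.056).

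MRPS9 (Entrez gene 64965, chromosome 2, 105038069 to 105099960), a protein of the small subunit's head, had 1605, 1759 and 1611 normalized counts in WT and 1991, 2095 and 2127 in R320* (limma log2 fold change 0.32 ± 0.05 SE, adjusted p = 9.43e-05). Its span overlaps 2 antisense genes, and the use of strand in counting is not given in the sources used here. MRPS22 (Entrez gene 56945, chromosome 3, 139343994 to 139357140), mitochondrion-specific, had 1548, 1560 and 1551 in WT and 1879, 1983 and 1728 in R320* (limma log2 fold change 0.26 ± 0.06 SE, adjusted p = 0.00101). MRPS27 (Entrez gene 23107, chromosome 5, 72219403 to 72320240), an RNA-binding pentatricopeptide repeat protein, had 4821, 5232 and 4909 in WT and 5908, 5726 and 5757 in R320* (limma log2 fold change 0.22 ± 0.04 SE, adjusted p = 0.000247). No library of either genotype crossed into the other's range for these 3 genes, which were called higher in RPKM too.

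The falls were smaller than the rise of MRPL50. MRPS33 (Entrez gene 51650, chromosome 7, 141002610 to 141014952), a small mitochondrion-specific protein, fell most. It had 1379, 1221 and 1354 normalized counts in WT and 1090, 959 and 985 in R320* (limma log2 fold change -0.38 ± 0.07 SE, adjusted p = 0.000187). MRPL42 (Entrez gene 28977, chromosome 12, 93467514 to 93516214), also mitochondrion-specific, had 2420, 2319 and 2363 in WT and 1924, 2029 and 1636 in R320* (limma log2 fold change -0.35 ± 0.07 SE, adjusted p = 0.000266). MRPL22 (Entrez gene 29093, chromosome 5, 154941073 to 154969411), whose bacterial counterpart lines the tunnel through which the new chain leaves, had 1850, 1875 and 1970 in WT and 1473, 1519 and 1498 in R320*. Its limma log2 fold change was -0.34 ± 0.05 SE (adjusted p = 2.88e-05), and -0.47 in RPKM. All 3 were called lower in both tables, with no overlap between genotypes in the counts.

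MRPL35 (Entrez gene 51318, chromosome 2, 86199433 to 86213794), counterpart of bacterial L35, had 2723, 2901 and 2679 normalized counts in WT and 2277, 2181 and 2209 in R320* (limma log2 fold change -0.32 ± 0.05 SE, adjusted p = 3.03e-05). The RPKM table gave it 89.9, 88.9 and 85.3 in WT and 84.4, 74.6 and 88.9 in R320*, which overlap, and no call (log2 fold change -0.09, limma adjusted p = 0.339). The counts alone thus carry its fall. MRPL41 (Entrez gene 64975, chromosome 9, 137551879 to 137552555), which is also known to bind BCL2, had 2758, 2501 and 3117 in WT and 2381, 2170 and 2413 in R320* (limma log2 fold change -0.26 ± 0.07 SE, adjusted p = 0.00353). MRPL51 (Entrez gene 51258, chromosome 12, 6491886 to 6493262), mitochondrion-specific, had 2325, 2021 and 2370 in WT and 1878, 1841 and 1996 in R320* (limma log2 fold change -0.23 ± 0.06 SE, adjusted p = 0.00441). WT replicate 2 was the lowest WT library for both, and without the intensity trend of the variance neither kept its call (limma adjusted p = 0.0743 and 0.0599). In RPKM MRPL41 was called lower (limma adjusted p = 0.0141; 0.0505 without R320* replicate 2) and MRPL51 was not called (limma adjusted p = 0.064).

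MRPS21 (Entrez gene 54460, chromosome 1, 150293861 to 150308979), counterpart of bacterial S21, had 2674, 2783 and 2763 normalized counts in WT and 2492, 2247 and 2361 in R320* (limma log2 fold change -0.21 ± 0.05 SE, adjusted p = 0.00154). MRPL18 (Entrez gene 29074, chromosome 6, 159789812 to 159798429), of the central protuberance, had 2600, 2711 and 2518 in WT and 2296, 2256 and 2310 in R320* (limma log2 fold change -0.19 ± 0.05 SE, adjusted p = 0.00244). MRPL21 (Entrez gene 219927, chromosome 11, 68891278 to 68903832), counterpart of bacterial L21, had 2317, 2392 and 2511 in WT and 2088, 2045 and 2201 in R320* (limma log2 fold change -0.19 ± 0.05 SE, adjusted p = 0.00448). MRPS21 fell by 13.7%, MRPL18 by 12.3% and MRPL21 by 12.2%, and all 3 were also called lower in RPKM. MRPL28 (Entrez gene 10573, chromosome 16, 366969 to 370538), counterpart of bacterial L28, had 3618, 3713 and 3920 in WT and 3244, 3336 and 3602 in R320* (limma log2 fold change -0.14 ± 0.05 SE, adjusted p = 0.0184). Its call did not survive leaving out WT replicate 3 (limma adjusted p = 0.0944), R320* replicate 1 (0.0757) or R320* replicate 2 (0.0699), within a range up to 0.104 over its alternatives, and was called lower in RPKM (limma adjusted p = 0.00226).

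**Figure D2:**
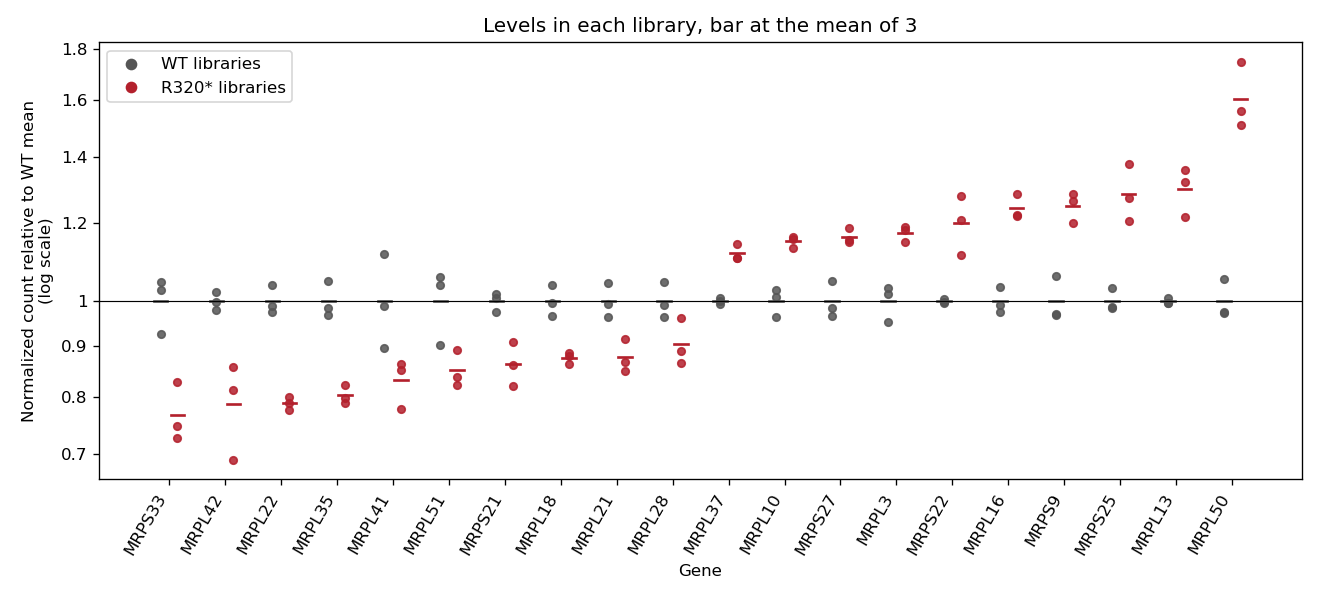
Normalized count of each library divided by the gene's WT mean (log scale) for the 10 genes called lower and the 10 called higher with the smallest adjusted p. Points are libraries, 3 per genotype, and bars are means. The R320* libraries lie outside the range of the WT libraries for each of the 20 genes, which were chosen by p from these same libraries. Libraries of the genotypes also did not overlap for 59.8% of all genes tested.

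MRPL23 and MRPL45 had larger log2 fold changes than most of these genes and wider errors, and are named here after their values were seen. MRPL23, counterpart of an exit-tunnel protein, had 379, 363 and 408 normalized counts in WT and 476, 408 and 777 in R320* (log2 fold change 0.47, 95% interval 0.12 to 0.83, limma adjusted p = 0.0242). The R320* replicate 3 value stood far above the others, and without it the log2 fold change was 0.20 (limma adjusted p = 0.152). The call was also lost without WT replicate 1 (limma adjusted p = 0.0641) or 2 (0.0853). The RPKM table, where MRPL23 was 149 ± 0.292 in WT and 160 ± 16.5 in R320*, gave no call (limma adjusted p = 0.351), and in RefSeq the span of MRPL23 overlaps H19 and 3 other noncoding genes. MRPL45, which anchors the ribosome to the inner membrane, had 556, 463 and 527 normalized counts in WT and 583, 763 and 753 in R320* (change of 0.43 on the log2 scale, limma adjusted p = 0.00252), and was called higher in RPKM (log2 fold change 0.29, limma adjusted p = 0.00128).

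Leaving out each library in turn, 28 of the 37 called genes (19 higher and 9 lower) kept their call in all 6 fits. MRPL23, MRPL15, MRPL20, MRPL30 and MRPL39 among the higher genes and MRPL28, MRPL40, MRPL52 and MRPS36 among the lower genes lost it in at least 1. MRPS36, the gene no longer counted with the ribosome, had 1019, 1017 and 861 normalized counts in WT and 871, 914 and 559 in R320*, which overlap, and its log2 fold change of -0.33 (limma adjusted p = 0.0487) became -0.11 without R320* replicate 3 (limma adjusted p = 0.299). The adjusted p of the other 8 genes in the fits that lost them ran from 0.0503 for MRPL15 without WT replicate 3 to 0.152 for MRPL23 without R320* replicate 3.

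By subunit, 17 of 51 large-subunit genes tested were higher and 10 lower (median log2 fold change 0.03; 19 and 7 with upper quartile scaling), and 7 of 24 small-subunit genes were higher and 2 lower (median 0.06; 10 and 2 with upper quartile scaling). Of all genes tested 26.4% were higher and 27.4% lower. Of 30 large-subunit proteins with bacterial counterparts 13 were higher and 5 lower, and of 21 that are mitochondrion-specific 4 were higher and 5 lower (medians 0.05 and -0.03). In RPKM 11 large-subunit genes were higher and 11 lower, and 6 small-subunit genes higher and 3 lower. In the small subunit 3 of 15 bacterial-type genes were higher and 1 lower, and 4 of 9 mitochondrion-specific genes were higher and 1 lower. No difference between these classes was tested, and each holds genes that moved either way.

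By position in the ribosome the picture was also mixed. Sites were given to some of the genes only, and the list of a site need not be complete. Of the 8 central protuberance proteins, which sit around the structural tRNA that takes the place of 5S RNA, none was higher and 3 were lower (MRPL18, MRPL40 and MRPL52), and MRPL40 and MRPL52 each lost their call when 1 library was left out (limma adjusted p up to 0.0878 and 0.14). MRPL27, MRPL38, MRPL46, MRPL48 and MRPL58 of the same feature were not called, with log2 fold changes from -0.12 to 0.05. Of 8 exit-tunnel proteins 4 were higher (MRPL4, MRPL23, MRPL39 and MRPL45) and 1 lower (MRPL22). Of the 6 genes sorted to the small subunit's head 3 were higher (MRPS7, MRPS9 and MRPS31) and none lower. That holds for the sorted genes only. The small-subunit genes MRPS33, lower in both tables, and MRPS24, lower in RPKM, were given no site and are not counted there. At the stalk MRPL10 and MRPL12 of 5 were higher. In RPKM the stalk had 1 higher and 2 lower (MRPL53 and MRPL54), and the exit tunnel 2 higher and 2 lower. There the head had 2 higher and none lower, and the central protuberance none higher and 3 lower. Some of these RPKM calls were lost when 1 library was left out. They were those of MRPL10, MRPL53 and MRPL54 at the stalk (limma adjusted p up to 0.0654, 0.0941 and 0.12). MRPL24 and MRPL39 of the exit tunnel and MRPS31 of the head lost theirs too (limma adjusted p up to 0.0501, 0.0958 and 0.0697). Of all genes tested 26.4% were higher and 27.4% lower in the counts, and 15.1% and 16.8% in RPKM. MRPS12, the decoding-centre protein, had 1726, 1822 and 1803 normalized counts in WT and 1836, 1818 and 1777 in R320*, which overlap (log2 fold change 0.02, 95% interval -0.08 to 0.13).

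Some well-counted genes, named here after their values were seen, had narrow intervals about 0 in the counts. MRPS16 was 4771 ± 38.4 normalized counts in WT and 4938 ± 19.2 in R320* (SD, n = 3), with a 95% interval of the log2 fold change from -0.03 to 0.13. In RPKM its log2 fold change was -0.13 with an interval from -0.25 to -0.01. MRPS34 was 3741 ± 62.5 and 3788 ± 111 normalized counts (interval -0.07 to 0.10), and in RPKM its log2 fold change was -0.16 (interval -0.27 to -0.04). Neither was called in either table, but the RPKM estimates lie outside the intervals of the counts, so those intervals cover the spread between libraries and not the choice of table. MRPS15 was 4068 ± 99.7 and 4162 ± 230 normalized counts (interval -0.06 to 0.13, and -0.17 to 0.09 in RPKM). MRPL11, at the stalk base, was 2975 ± 106 and 3025 ± 87.8 (interval -0.07 to 0.12, and -0.14 to 0.21 in RPKM). DAP3, a small-subunit GTP-binding protein outside the naming rule, was 7463 ± 12.2 and 7635 ± 67.2 (log2 fold change 0.03).

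The tables of counts and of RPKM hold the same libraries processed in different ways, so they do not replicate each other. In RPKM 17 of 78 genes were higher and 15 lower (limma on log2(RPKM + 0.1) over 17769 genes), and the median log2 fold change was 0.02. Of all rows tested there 15.1% were higher and 16.8% lower. Scaling the RPKM columns to equal sums, which moves the median of all genes to 0.08, gave 21 higher and 9 lower. Both tables called 16 of the 76 shared genes higher and 11 lower, none was called in opposite directions, 10 were called in the counts alone, 4 in RPKM alone and 35 in neither. The sign was the same for 65 of 76, with Pearson r = 0.897 and Spearman rho = 0.901 across genes, as a description.

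**Figure D3:**
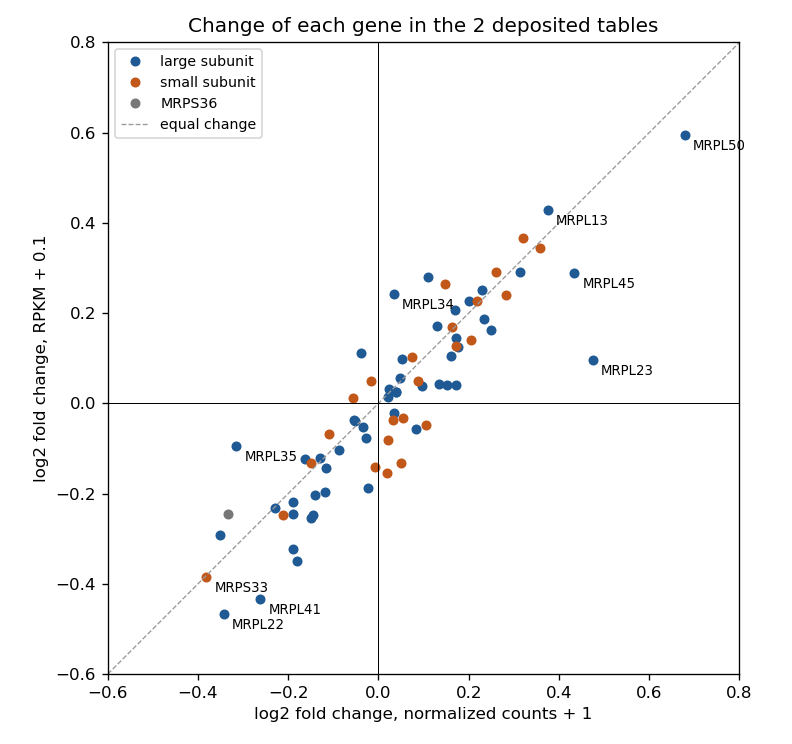
Log2 fold change (R320* minus WT) of the 76 genes in normalized counts against that in RPKM, coloured by subunit, with the line of equal change dashed. Most points follow the line; MRPL23 and MRPL35 are among those that lie well off it.

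Genes of the set are scattered over 21 chromosomes, so their surroundings differ. Each gene was set beside the median log2 fold change of the 20 tested genes on either side, and across the 76 genes the values had Pearson r = 0.329, as a description. Of the 37 called genes 23 had the sign of their neighbours, and the same share over all called genes is not given here. MRPL42 (log2 fold change -0.35) lay among neighbours with a median of -0.51, and MRPL22 (-0.34) among neighbours with -0.32. MRPL3 (0.23) lay among neighbours with 0.23 and MRPL13 (0.37) among neighbours with 0.19. MRPL50 (0.68) exceeded its neighbours (0.15), and MRPS33 (-0.38) and MRPL21 (-0.19) had neighbours of the other sign (0.12 and 0.26). The part of the neighbourhood in these changes was not tested. MRPS11 and MRPL46, whose starts lie 63 bases apart on opposite strands, had log2 fold changes of -0.15 and 0.05, and neither was called.

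Summed over the set in RPKM, the mRNA level differed by less than the spread between libraries. The 78 genes came to 6201, 6160 and 6417 RPKM in WT and 6367, 6119 and 6167 in R320*, or 6259 ± 138 against 6217 ± 132 (SD, n = 3), and the genotypes overlapped. The ratio of large-subunit to small-subunit RPKM was 1.92 ± 0.0288 in WT and 1.89 ± 0.00861 in R320*. In normalized counts the genes came to 156947 ± 2320 in WT and 162668 ± 1429 in R320*, without overlap. As a share of normalized counts the genes took 0.516% ± 0.00827 in WT and 0.544% ± 0.00487 in R320*, without overlap. As a share of the RPKM column sum they took 0.805% ± 0.0167 in WT and 0.843% ± 0.0106 in R320*, again without overlap. The comparison thus depends on the scale, and in RPKM on whether the set is summed or taken as a share.

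The cytosolic ribosome, which makes these proteins, was set beside its mitochondrial counterpart. Its protein genes summed to 186314 ± 4321 RPKM in WT and 162433 ± 13271 in R320*, and the mitochondrial set was 3.36% of that sum in WT and 3.84% in R320*. R320* replicate 1 (177754 RPKM) stood closer to WT than replicates 2 and 3 (154984 and 154559). In the counts 83 cytosolic genes were tested, and 7 of them were higher, 48 lower (median log2 fold change -0.13), against 26.4% and 27.4% of all genes tested. Upper quartile scaling gave 7 higher and 38 lower, and RPKM gave 1 higher and 30 lower of 84. The list was taken by gene name and so includes related genes with a further L in the name. Among these, in the counts, RPL7L1 and RPL22L1 were higher, RPL26L1, RPL39L and RPS27L lower, and RPL10L not called. RPLP0, of the cytosolic stalk, fell from 90613 ± 875 to 59784 ± 2027 normalized counts (log2 fold change -0.60), among chromosome 12 neighbours with a median of -0.51. Many cytosolic ribosomal protein genes have near-identical copies elsewhere in the genome, and how the counting treated reads shared with them is not stated in the sources used here.

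**Figure D4:**
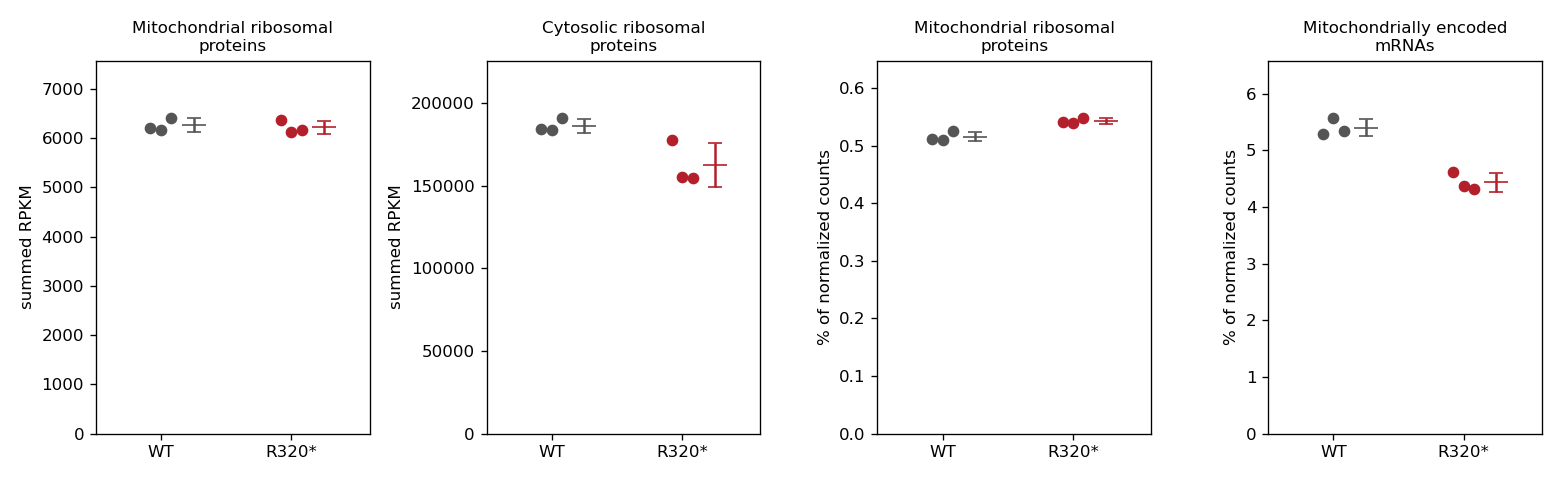
Summed RPKM of the mitochondrial and of the cytosolic ribosomal protein genes, and the share of normalized counts taken by the mitochondrial ribosomal protein genes and by mitochondrially encoded mRNAs, in each library. Bars beside the points are means with SD of 3 libraries. The mitochondrial set overlaps between genotypes in RPKM, and the other 3 quantities do not overlap.

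Proteins that build or run the mitochondrial ribosome were followed in further lists. Of 5 ribosomal proteins outside the naming rule, PTCD3 (4925 ± 46.8 to 5753 ± 250 normalized counts) and GADD45GIP1 (2337 ± 135 to 2862 ± 140) rose, and AURKAIP1 was also called (log2 fold change 0.13), a call lost without WT replicate 1 or 2 or R320* replicate 3 (limma adjusted p = 0.0581, 0.106 and 0.0828). DAP3 and CHCHD1 were not called.

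Most assembly and rRNA maturation factors were called in the counts, with 19 of 29 higher and 3 lower (75.9% called, against 53.7% of all genes tested, median log2 fold change 0.18). In RPKM 11 were higher and 4 lower, against 15.1% and 16.8% of all rows tested. ERAL1, which chaperones the small-subunit rRNA, rose from 2374 ± 126 to 3166 ± 67.3 normalized counts. MTG1, a GTPase of large-subunit assembly, rose from 674 ± 51.9 to 994 ± 27.3, and MALSU1, which keeps the assembling large subunit from joining, rose from 1500 ± 49.5 to 1856 ± 51.2. SUPV3L1, the helicase of mitochondrial RNA decay, rose from 1475 ± 54.8 to 2096 ± 23.0. The extremes of the list, named after their values were seen, were the GTPase GTPBP6 (log2 fold change 1.63) and the rRNA methyltransferase MRM1 (-1.27). The difference in share between this list and the ribosomal proteins was not tested.

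Translation factors were called about as often as all genes tested (50%, against 53.7%), with 5 of 18 higher and 4 lower (median log2 fold change 0.01). In RPKM 4 were higher and 1 lower, and 6 and 0 with equal column sums. LRPPRC, which stabilises mitochondrial mRNAs, rose from 14021 ± 145 to 17961 ± 832 normalized counts, and the elongation factor GFM1 (log2 fold change 0.26) and the recycling factor MRRF (0.19) rose too. TSFM, the exchange factor for the elongation factor TUFM, fell from 1365 ± 44.4 to 1022 ± 27.2 (log2 fold change -0.42), among chromosome 12 neighbours with a median of -0.69. Of the genes that copy and transcribe the mitochondrial genome 6 of 10 were higher and 1 lower in the counts (median 0.25), and 5 were higher and none lower in RPKM. The shares over all genes tested were 26.4% higher and 27.4% lower in the counts, and 15.1% and 16.8% in RPKM. POLG, the DNA polymerase, rose from 2614 ± 73.5 to 4010 ± 250, POLRMT, the RNA polymerase, from 4234 ± 50.2 to 5668 ± 132 (log2 fold change 0.42, neighbours 0.40), TFAM, which packages and starts transcription of mitochondrial DNA, from 3426 ± 78.9 to 4089 ± 160, and TWNK, the helicase, from 1093 ± 21.7 to 1348 ± 27.6.

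Of 9 tested regulators of nuclear genes for mitochondria 3 were higher and 3 lower, against 26.4% and 27.4% of all genes tested. MYC, known elsewhere as a driver of ribosome and mitochondrial biogenesis, rose from 11247 ± 164 to 25021 ± 92.0 normalized counts (2.22-fold, log2 fold change 1.15, neighbours 0.34). Its part in the changes of the other genes was not tested. PPRC1, a coactivator of the PGC-1 family, rose from 2080 ± 18.9 to 2671 ± 94.1. The GABP subunits diverged, GABPA rising from 1868 ± 20.2 to 2176 ± 156 and GABPB1 falling from 877 ± 64.2 to 696 ± 37.3. SP1 fell from 4341 ± 151 to 3747 ± 153 (log2 fold change -0.21, neighbours -0.66), and ESRRA was called lower (log2 fold change -0.15), a call kept in just 1 of the 6 fits without 1 library (limma adjusted p from 0.0533 to 0.273 in the other 5). YY1, whose core recurs at the starts shown above, was 3313 ± 37.4 in WT and 3212 ± 87.3 in R320* (change of -0.05 on the log2 scale, limma adjusted p = 0.383), and NRF1 was 787 ± 79.3 and 734 ± 18.4 (-0.10, limma adjusted p = 0.336).

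The respiratory chain, which the products of this ribosome enter, was read from its nuclear-encoded subunits. With those of ATP synthase, 56 of 78 were lower and 3 higher (median log2 fold change -0.24), against 27.4% and 26.4% of all genes tested, and 49 of 82 were lower and 3 higher in RPKM. Among the lower genes were ATP5F1B, the catalytic subunit of ATP synthase (48890 ± 516 to 26162 ± 339 normalized counts), and COX6A1 (6893 ± 25.8 to 3795 ± 116). ATP5MC2 and NDUFA12 fell as well (log2 fold changes -0.94 and -1.07). All 4 lie on chromosome 12 among lowered neighbours, with medians of -0.66 for ATP5F1B, -0.51 for COX6A1, -0.67 for ATP5MC2 and -0.59 for NDUFA12. The part of this neighbourhood in their changes was not tested.

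**Figure D5:**
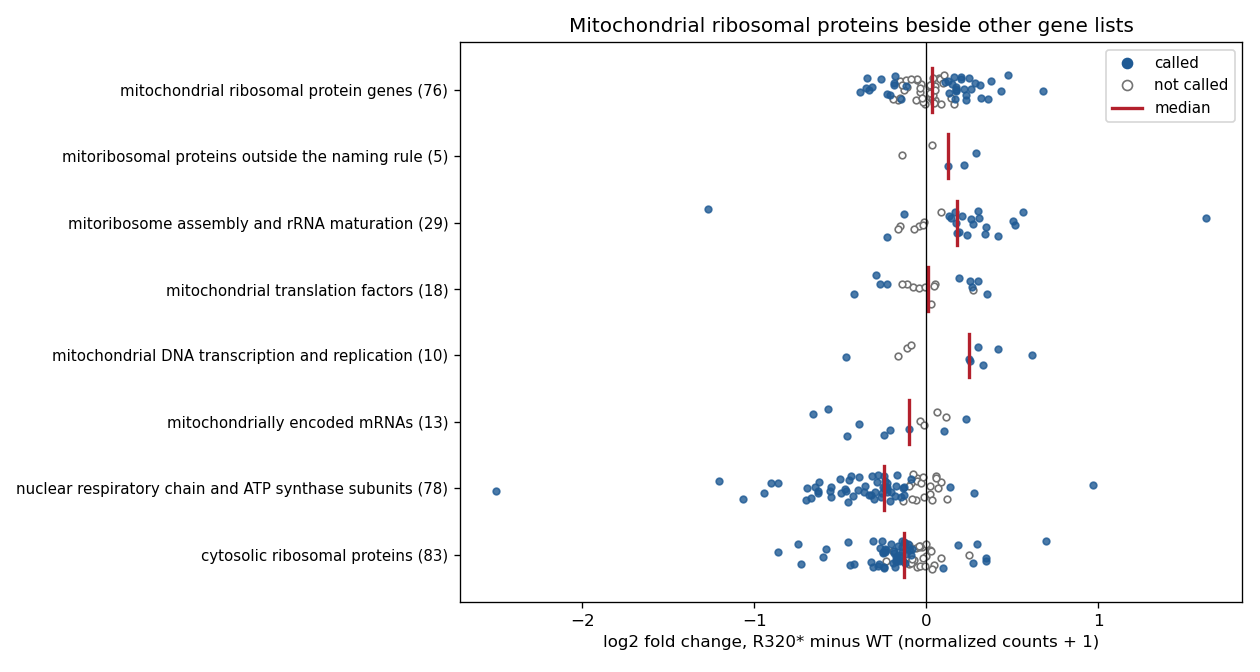
Log2 fold change (R320* minus WT, normalized counts) of every tested gene in 8 lists, with the number tested in brackets, filled points called and open points not called, and a bar at each median. Mitochondrial ribosomal protein genes lie close about 0, assembly factors and mitochondrial DNA genes have medians above it, and respiratory chain and cytosolic ribosomal genes medians below it.

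Of the 13 mitochondrially encoded mRNAs, which were read from the counts alone, 7 were lower and 2 higher (median log2 fold change -0.10), or 6 and 3 with upper quartile scaling. Without that scaling the shares over all genes tested were 27.4% lower and 26.4% higher. COX1 had 391765, 409267 and 392101 normalized counts in WT and 256873, 250085 and 249860 in R320* (change of -0.66 on the log2 scale, limma adjusted p = 1.01e-10). COX2 fell from 221058 ± 6200 to 149136 ± 4779 and ATP6 from 137904 ± 4421 to 100486 ± 8809, whereas ND1 rose from 68688 ± 3502 to 80509 ± 2636. CYTB (lower) and ND2 (higher) each lost their call in 4 of the 6 fits without 1 library (limma adjusted p up to 0.203 and 0.195). ATP6 overlaps ATP8 and ND4L overlaps ND4 on the genome. Together the mRNAs took 5.40% ± 0.156 of normalized counts in WT and 4.43% ± 0.163 in R320*, without overlap. RNR1, the rRNA of the small subunit, was 17205 ± 1201 in WT and 19522 ± 777 in R320* (change of 0.18 on the log2 scale, limma adjusted p = 0.00255), and RNR2, the rRNA of the large subunit, was 209137 ± 9207 and 206164 ± 2930 (log2 fold change -0.02, limma adjusted p = 0.673). The rRNA of the small subunit was thus called higher while most of the called mRNAs were lower. How much rRNA the library preparation kept is not given in the sources used here.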

How the data were processed

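RNA-seq values of 3 WT and 3 R320* K562 libraries were used. The deposited signal values are normalized read counts per Entrez gene, scaled by the authors with 1 factor in each library: in each library 100% of the values were whole multiples (within 1e-06) of its smallest step. The deposited RPKM values, named so by the authors in the table's title, are per Ensembl gene and come from other processing of the same libraries. The submitters' processing notes name HISAT2, featureCounts, DESeq2, Salmon and hg38, while versions, settings and which tool made which table are not stated. Both tables held 0 other columns of samples.

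Genes that reached 10 normalized counts in 3 or more libraries were fitted as log2(normalized count + 1), and rows that reached 0.5 RPKM in 3 or more libraries as log2(RPKM + 0.1), with limma 3.58.1 in R 4.3.3 (intensity trend, genotype as the sole term, two-sided, Benjamini-Hochberg adjustment over all genes tested, called below 0.05). Intervals are 95% intervals from that fit. The fit was tested on simulated data. edgeR 4.0.16 and DESeq2 1.42.0 on the recovered counts, other pseudocounts, filters and scalings, a replicate block and each library left out in turn were alternatives. Levels of different genes were compared in RPKM alone, because the counts are not divided by length. Coordinates and sequences are from RefSeq GRCh38.p14.

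The rule for genes given in every library took the 10 with the smallest adjusted p in each direction, the 3 highest and the 3 lowest by mean RPKM, and any called in opposite directions in the tables. MRPL23, MRPL45, MRPS36, MRPS12 and COX1 were added outside the rule after their values were seen. Other lists named up to 4 genes, with the smallest p, and were shown in full for the regulators, the mitochondrially encoded genes and the ribosomal proteins outside the naming rule. The genes, the lists and the sorting by subunit, origin and site, made from general knowledge, were chosen with earlier results of these data known, and the motifs were chosen after the files had been opened. Of the markers examined, 1 is not reported here.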

Additional observations from a re-analysis of the deposited data

How the results depend on the processing

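No call among the 24 tested genes taken by the rule for genes given in every library changed direction under any alternative run: of 384 values 372 kept their side of the threshold, 7 lost it and 5 gained it. Of the 37 genes called in the counts, 26 kept their call without the intensity trend, and 31 to 37 did under each other alternative (36 with edgeR, 35 with DESeq2). Without the intensity trend 19 genes were higher and 7 lower in the counts, and in RPKM 11 were higher. Upper quartile scaling moved the median log2 fold change in the counts to 0.068, and that of all genes tested to 0.037. Equal RPKM column sums moved the median in RPKM to 0.10, and that of all genes tested to 0.08, with 9 genes of the set lower. The cause of these changes was not tested. Leaving out 1 library at a time gave 21 to 25 higher and 10 to 13 lower in the counts (median 0.02 to 0.06), and 12 to 16 higher and 12 to 16 lower in RPKM (median -0.00 to 0.03). Same-numbered libraries of the genotypes did not deviate together (correlations of their deviations across genes 0.03, -0.00 and -0.00), so the numbers were not taken to pair them. A replicate block gave 25 higher and 14 lower in the counts and 15 and 14 in RPKM. Upper quartile scaling turned the sign of MRPL38, MRPS18C, MRPS23 and MRPS30, none of which was called in either fit. With 3 libraries per genotype, fold changes within 1.25-fold were bounded for 53 of the 76 genes and remain unresolved for the others.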
